A study of Mus musculus with 12 samples.

Results

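Sterol and mevalonate pathway genes were compared between regulatory T cells of NOD and NOD.Drak2-/- mice. The lowest difference was that of Hmgcs1, the cytosolic HMG-CoA synthase near the head of the pathway. Its mean was 1.61-fold lower in NOD.Drak2-/-, lower in 6 of 6 arrays than the NOD mean, and this did not pass the threshold over all genes. The 8 genes were chosen by symbol and are Hmgcs1, Mvd, Idi1, Fdps, Fdft1, Sqle, Insig1 and Srebf2. All 8 had a row in the authors' deposited table, and they are 8 of 19505 genes tested. Where a gene had several rows, the brightest was used.

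Regulatory T cells, CD4 T cells that hold immune responses in check, had been sorted from lymph nodes of female mice aged 4 to 8 weeks and measured on 1-colour arrays. There were 6 arrays of NOD mice, which become diabetic by spontaneous autoimmunity, and 6 of mice labelled NOD.Drak2-/-, which share that background and are labelled as lacking Drak2, the serine/threonine kinase encoded by Stk17b. Each array is labelled as a biological replicate from a mouse, with NOD numbers 1 to 6 and NOD.Drak2-/- numbers 1 to 5 plus 7, and no treatment is named for either genotype. The labels say nothing further of the allele, and both groups carry the NOD background. Values are on a log2 scale, and a difference is NOD.Drak2-/- minus NOD throughout.

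The mevalonate pathway builds isoprenoid units from acetyl-CoA. Farnesyl diphosphate is its branch point: one branch leads through squalene to cholesterol, and the others supply the lipid anchors of prenylated proteins, dolichol and ubiquinone. SREBP2, encoded by Srebf2, is the transcription factor that induces the pathway when membrane sterol is low, and Insig1 holds the SREBP escort protein Scap in the endoplasmic reticulum when sterol is sufficient. Growing and activated T cells are known to raise sterol synthesis, and mevalonate metabolism is known to be needed for regulatory T cell function. Insig1 and the enzyme genes of the pathway are themselves SREBP2 targets.

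The promoters of Hmgcs1, Insig1 and Srebf2 are shown because the first pair varied most closely together over the arrays and Srebf2 encodes the factor that acts on them. Each line gives the 250 bases before the RefSeq transcription start, 5′ to 3′, with capitals for a sterol regulatory element written as TCACNCCAC or an E-box written as CACGTG, searched on both strands. They are reference sequence of assembly GRCm38.p6, of the C57BL/6J strain rather than NOD. Hmgcs1 is at chr13:119690101-119690350, Insig1 at chr5:28071162-28071411 and Srebf2 at chr15:82147019-82147268, all on the plus strand.
Hmgcs1: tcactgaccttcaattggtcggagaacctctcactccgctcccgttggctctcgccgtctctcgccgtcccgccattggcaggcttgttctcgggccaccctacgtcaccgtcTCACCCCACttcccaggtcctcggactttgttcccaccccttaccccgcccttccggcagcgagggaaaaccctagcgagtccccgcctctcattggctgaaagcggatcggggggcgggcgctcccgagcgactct
Insig1: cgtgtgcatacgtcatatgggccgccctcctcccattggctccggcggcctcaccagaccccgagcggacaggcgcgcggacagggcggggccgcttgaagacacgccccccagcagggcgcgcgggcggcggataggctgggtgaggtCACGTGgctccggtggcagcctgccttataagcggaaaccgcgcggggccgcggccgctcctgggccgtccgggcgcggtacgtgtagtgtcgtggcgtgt
Srebf2: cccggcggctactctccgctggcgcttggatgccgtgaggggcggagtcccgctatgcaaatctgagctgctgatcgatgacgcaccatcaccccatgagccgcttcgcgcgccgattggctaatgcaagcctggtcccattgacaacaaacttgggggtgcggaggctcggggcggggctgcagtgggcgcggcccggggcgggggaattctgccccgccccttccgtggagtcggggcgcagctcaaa

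RefSeq promoters were matched for 5 of the 8 genes, these 3 and Mvd and Idi1. TCACNCCAC was found in Hmgcs1, 137 bases before the start, and among the 5 in no other. Of all 32851 promoter windows of this length, 1.05% held it. CACGTG, which SREBP proteins can also bind, was found in Insig1, 101 bases before the start, and in 6.02% of all windows. CCAAT, the site of the SREBP partner NF-Y, was in all 5 on either strand, with 3 matches in Hmgcs1, 2 each in Mvd and Idi1, and 1 each in Insig1 and Srebf2. It was in 33.8% of all windows. GGGCGG, the GC box of Sp1, was in all 5 as well and in 32.7% of all windows, and none of these matches overlapped another motif. A match describes the letters only, and the lack of one says only that these letters are not in the window.

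Array medians over all genes lay between 5.18 and 5.34, and Pearson correlations of array pairs, taken across genes (not independent replicates), between 0.968 and 0.991. Stk17b ran from 10.21 through a median of 10.55 to 10.80 in NOD and from 9.97 through 10.32 to 10.36 in NOD.Drak2-/-. Its difference was -0.27 (adjusted p = 0.517 in limma) and the genotypes overlapped, so it does not check the label of a single array, and the sources used here do not say whether its probes lie in the deleted part. Of 12 measured genes that define regulatory T cells 11 were above background, beside 8128 of all 19505 genes. Ctla4 averaged 9.70 and Cd4 9.77, while Il2ra, a gene of the sort marker CD25, averaged 4.91, in the range of the background rows. No row was named for Foxp3, which was not analysed here. Background here means a mean over all arrays at or below 5.87, that of the brightest of 23 rows whose probes match nothing in the genome. B cell markers (9 genes) averaged 4.59 to 5.02 per array in NOD and 4.56 to 5.35 in NOD.Drak2-/-, with Cd79b, at 6.13, as the 1 gene above background. Myeloid and dendritic markers (11 genes) averaged 4.58 to 4.90 and 4.69 to 5.04, with Cst3, at 10.46, alone above background. For the 7 CD8 and natural killer markers the averages were 4.69 to 5.05 and 4.61 to 5.19, with 2 of the 7 above background. Cd8b1 was brightest at 7.36, and Cd8a averaged 5.04. For the 7 stromal and endothelial markers the averages were 4.90 to 5.13 and 4.82 to 4.97. Here too 2 of the 7 were above background, with Pecam1 brightest at 9.18. Arrays have no true 0, and the part of other cells in the results below was not tested beyond the covariate fits described there.

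Over the whole comparison, 4 of 19505 genes passed an adjusted p of 0.05 in limma, 0.0205% of genes, and 0 of the 8 pathway genes were among them. At an unadjusted p under 0.05 there was 1 of 8, Hmgcs1, beside 9.43% of all genes. The difference was below 0 for 6 of 8, beside 54.1% of all genes. The genotypes overlapped for all 8, and were apart for 0.513% of all genes. The median difference over the 8 was -0.09, beside -0.02 over all genes, and the differences ran from -0.68 for Hmgcs1 to 0.26 for Srebf2. Without NOD replicate 1 the sign of that median turned (0.012), and it was -0.025 with median centring of the arrays and -0.031 with the proliferation mean as a covariate. A shortfall from the threshold does not show that a level was alike in the genotypes, so each difference is given with its interval.

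**Figure D1:**
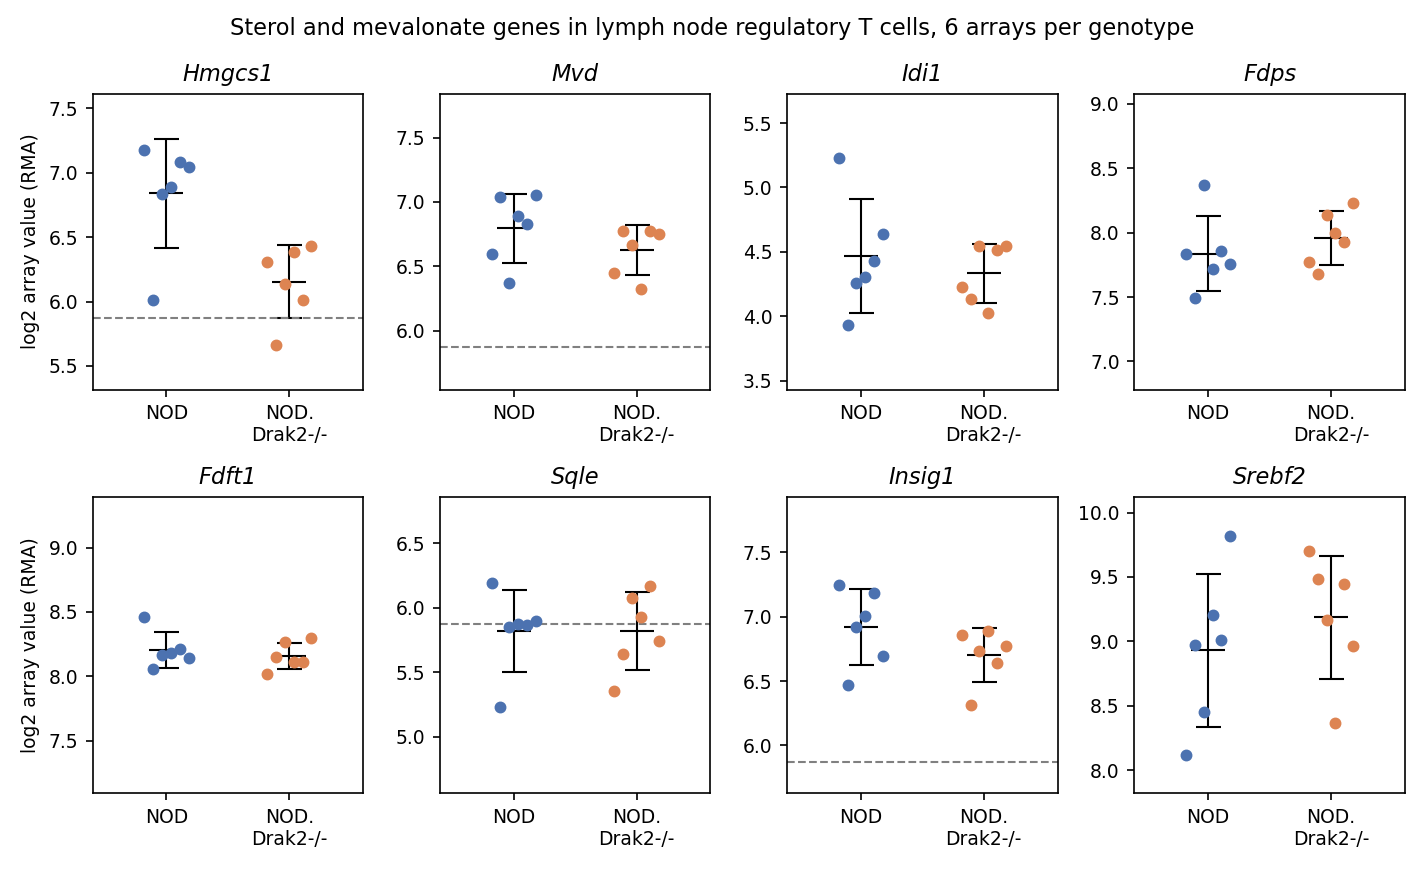
Log2 array values of the 8 genes in NOD (blue) and NOD.Drak2-/- (orange), 1 point per array, with the mean and SD of 6 arrays per genotype as black bars. Each panel spans the same number of log2 units, the dashed line is the mean of the brightest background row (5.87), which lies outside the panels of Idi1, Fdps, Fdft1 and Srebf2, and in Hmgcs1 5 of 6 NOD arrays lie above every NOD.Drak2-/- array.

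Hmgcs1 joins acetyl-CoA to acetoacetyl-CoA to give HMG-CoA, an early intermediate of the pathway. In NOD replicates 1 to 6 its log2 values were 7.18, 6.01, 6.83, 6.89, 7.08 and 7.04. In NOD.Drak2-/- replicates 1 to 5 and 7 they were 6.30, 5.67, 6.14, 6.38, 6.02 and 6.43. Thus 5 of 6 NOD arrays were above the highest NOD.Drak2-/- array, 6 of 6 NOD.Drak2-/- arrays were below the NOD mean, and the overlap came from NOD replicate 2. The means were 6.84 ± 0.43 (SD, n = 6) and 6.16 ± 0.29 (SD, n = 6), and the difference was -0.68 (SE 0.19, 95% interval -1.08 to -0.29). Its adjusted p was 0.436 in limma, over all genes, with an unadjusted p of 0.0021 that ranked 91st of all genes. A two-sided exact permutation test of 6 against 6 arrays gave p = 0.013, unadjusted, where the smallest possible is 0.00216. Differences as low or lower were found for 22 genes, 0.113% of those tested. Without NOD replicate 2 the difference was -0.85 and the adjusted p 0.0892 in limma, and over all 24 alternative settings the difference ran from -0.85 to -0.56 and the adjusted p from 0.0892 to 0.648. Hmgcs1 lay above the brightest background row of its own array on 8 of 12 arrays, so its lower values are close to background.

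Mvd, which decarboxylates diphosphomevalonate to the first isoprenoid unit, ran from 6.37 through a median of 6.86 to 7.05 in NOD and from 6.32 through 6.71 to 6.78 in NOD.Drak2-/-. The ranges overlapped, although 6 of 6 NOD.Drak2-/- arrays were below the NOD mean. Its difference was -0.17 (95% interval -0.46 to 0.12, adjusted p = 0.702 in limma). Idi1, the isomerase that interconverts the isoprenoid units, ran from 3.93 through 4.37 to 5.23 in NOD and from 4.03 through 4.37 to 4.55 in NOD.Drak2-/-. On all 12 arrays it lay below the brightest background row. Its difference was -0.13 (95% interval -0.52 to 0.25, adjusted p = 0.832 in limma), and 0.02 without NOD replicate 1, the highest array.

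Farnesyl diphosphate synthase, encoded by Fdps, makes the branch-point lipid. Its values ran from 7.49 through a median of 7.80 to 8.37 in NOD and from 7.68 through 7.96 to 8.23 in NOD.Drak2-/-, well above background on 12 of 12 arrays. The NOD.Drak2-/- range lay wholly within that of NOD, and the difference was 0.12 (95% interval -0.18 to 0.43, adjusted p = 0.805 in limma). That difference was 0.052 without NOD replicate 2, 0.066 without NOD.Drak2-/- replicate 7 and 0.23 without NOD replicate 3. Fdft1, squalene synthase, commits farnesyl diphosphate to sterol. It ran from 8.06 through 8.17 to 8.46 in NOD and from 8.02 through 8.13 to 8.29 in NOD.Drak2-/-, and had the narrowest spread of the 8 genes, a within-genotype SD of 0.12. Its difference was -0.05 (95% interval -0.26 to 0.17, adjusted p = 0.899 in limma), and its sign turned with median centring of the arrays (0.02). Sqle, squalene epoxidase, a flux-controlling oxygenase of the sterol branch, ran from 5.23 through 5.87 to 6.19 in NOD and from 5.35 through 5.83 to 6.17 in NOD.Drak2-/-. The ranges overlapped almost entirely, at the edge of background (mean 5.82), and the difference was -0.00 (95% interval -0.35 to 0.35, adjusted p = 0.998 in limma), with a sign that 15 of 23 alternatives turned.

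Of the regulators, Insig1 ran from 6.47 through a median of 6.96 to 7.25 in NOD and from 6.31 through 6.75 to 6.89 in NOD.Drak2-/-. As for Hmgcs1, 6 of 6 NOD.Drak2-/- arrays were below the NOD mean, and 4 of 6 NOD arrays were above the highest NOD.Drak2-/- array. The difference was -0.22 (95% interval -0.53 to 0.09, adjusted p = 0.643 in limma). Without NOD replicate 2 it was -0.31, with an unadjusted p of 0.0384 and an adjusted p of 0.706 in limma. In that fit 2 of the 8 genes had an unadjusted p under 0.05, beside 1347 of all 19505 genes. Srebf2 ran from 8.12 through 8.99 to 9.82 in NOD and from 8.37 through 9.30 to 9.70 in NOD.Drak2-/-. It had the widest spread of the 8, a within-genotype SD of 0.54, and 5 of 6 NOD.Drak2-/- arrays were above the NOD mean. Its difference was 0.26 (95% interval -0.30 to 0.81, adjusted p = 0.766 in limma), and -0.02 with the mean of the background rows as a covariate. It was 0.094 without NOD replicate 1, 0.16 without NOD replicate 3, 0.15 without NOD.Drak2-/- replicate 1, 0.42 without NOD.Drak2-/- replicate 4 and 0.43 without NOD replicate 6.

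The other genes of the pathway were read from 6 lists with 73 genes, of which 57 were measured. Of the 57, 38 averaged above background, beside 8128 of all 19505 genes. In limma 0 of the 57 passed the threshold, and 8 had an unadjusted p under 0.05, 6 with a positive difference (beside 3.74% of all genes) and 2 with a negative one (beside 5.69%). Among 12 further enzymes of mevalonate and sterol synthesis the differences were 6 positive and 6 negative, with a median of 0.01 and 0 at an unadjusted p under 0.05. The differences of this list ran from -0.22 to 0.14. Lss, lanosterol synthase, was at the lower end with -0.22 (adjusted p = 0.66 in limma), and Mvk, mevalonate kinase, at the upper end with 0.14 (adjusted p = 0.732), both genes averaging just below the background limit. The lowest of these 12 differences thus stood beside the -0.68 of Hmgcs1, a contrast that was not tested.

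Among 7 further regulators of SREBP, which do not all act in the same direction, the median difference was 0.34, beside -0.02 over all genes. Of the 7, 5 averaged above background. In this list 2 of 7 had an unadjusted p under 0.05, both positive, beside 3.74% of all genes in that direction. Erlin2, an endoplasmic reticulum protein that restrains SREBP, ran from 5.15 through a median of 5.62 to 6.52 in NOD and from 6.11 through 6.46 to 7.09 in NOD.Drak2-/-. The ranges overlapped, with 3 of 6 NOD.Drak2-/- arrays above every NOD array. The difference was 0.86 (SE 0.24, 95% interval 0.34 to 1.38, adjusted p = 0.444 in limma), and the NOD mean of 5.71 was in the background range. Scap, the escort that carries SREBP to the Golgi for cleavage, ran from 5.71 through 6.30 to 6.61 in NOD and from 6.53 through 6.77 to 7.21 in NOD.Drak2-/-. Here 5 of 6 NOD.Drak2-/- arrays were above every NOD array, and the difference was 0.57 (SE 0.17, 95% interval 0.22 to 0.93, adjusted p = 0.469 in limma). Neither gene passed over all genes under any of the 24 alternatives, in which Erlin2 differed by 0.65 to 1.02 and Scap by 0.47 to 0.71.

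**Figure D2:**
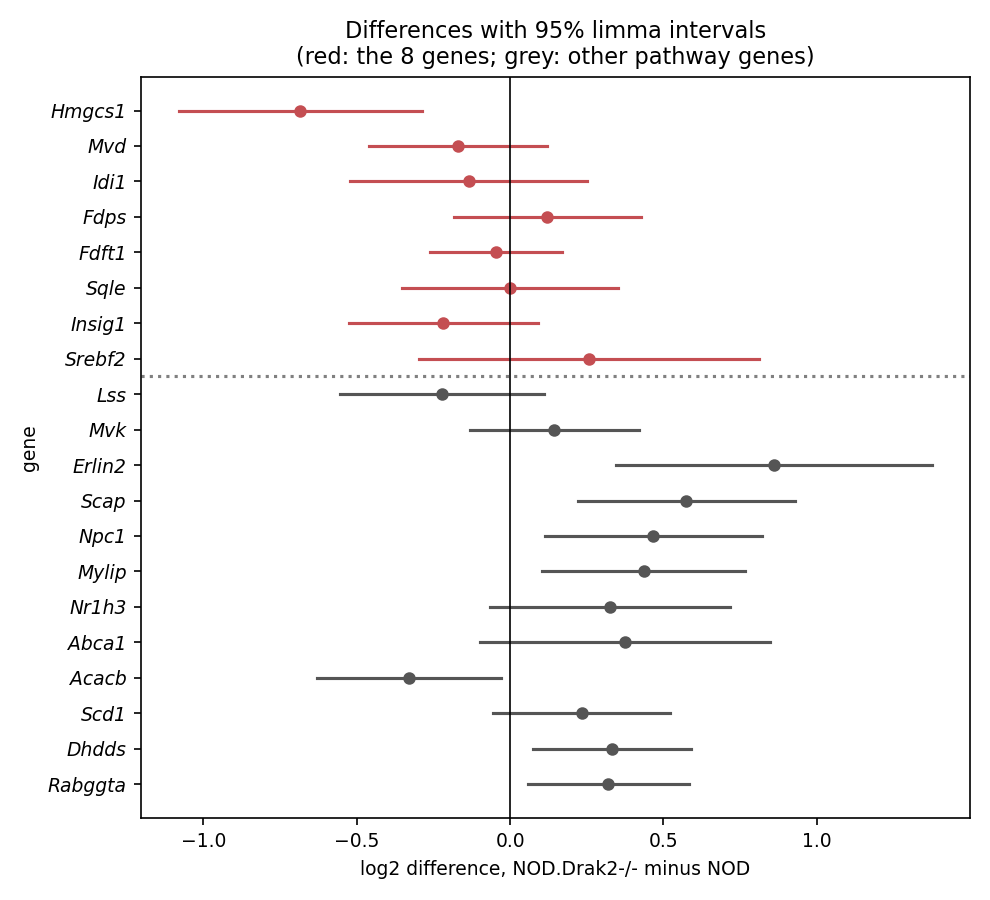
Log2 difference (NOD.Drak2-/- minus NOD) on the horizontal axis for the 8 genes (red, top) and the 2 genes with the smallest p of each other pathway list (grey, bottom), with 95% intervals from limma, unadjusted, as bars. Hmgcs1 is the 1 red gene whose interval (-1.08 to -0.29) leaves out 0, and the grey genes were picked for their small p-values.

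In sterol uptake and transport, 9 genes, 5 of them above background, had a median difference of 0.08. Of the 9, 2 had an unadjusted p under 0.05, both positive, beside 3.74% of all genes. The difference of largest size went the other way: Stard4, a sterol carrier protein gene named after its value was seen, differed by -0.50 (adjusted p = 0.535 in limma) at background level. Npc1, which exports cholesterol from lysosomes, differed by 0.47 (adjusted p = 0.481 in limma) but was in the background range on all 12 arrays. Mylip, a ubiquitin ligase induced by oxysterols that limits sterol uptake, ran from 9.25 to 9.86 in NOD and from 9.42 to 10.32 in NOD.Drak2-/-, and differed by 0.43 (adjusted p = 0.481 in limma). Of 7 genes of sterol export, storage and oxysterol sensing 0 had an unadjusted p under 0.05, and 2 averaged above background. Abca1, the cholesterol exporter, differed by 0.37 (adjusted p = 0.602 in limma) and Nr1h3, the oxysterol receptor LXR-alpha, by 0.33 (adjusted p = 0.59), the latter in the background range. Without NOD replicate 3 Abca1 differed by 0.57 (unadjusted p = 0.00459, adjusted p = 0.501 in limma), and without NOD replicate 2 by 0.25 (unadjusted p = 0.265 in limma). Abca1 lay above the brightest background row of its own array on 7 of 12 arrays. Without NOD replicate 6 Nr1h3 differed by 0.21. Nr1h3 had an unadjusted p of 0.0403 without NOD replicate 1 and of 0.0498 without NOD.Drak2-/- replicate 2.

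Of 11 fatty acid genes listed as targets of SREBP proteins, 1 had an unadjusted p under 0.05, a share near the 9.43% of all genes. This was Acacb, an acetyl-CoA carboxylase, with -0.33 (adjusted p = 0.512 in limma), while Scd1, a desaturase at background level, differed by 0.23 (adjusted p = 0.601). Among 11 genes that use farnesyl or longer isoprenoids for prenylation, dolichol or ubiquinone, 3 had an unadjusted p under 0.05, 2 positive and 1 negative, beside 9.43% of all genes. Dhdds, a subunit of the enzyme that makes the dolichol backbone, ran from 6.65 to 7.36 in NOD and from 7.34 to 7.64 in NOD.Drak2-/-, with a difference of 0.33 (adjusted p = 0.483 in limma). Rabggta, a subunit of the geranylgeranyl transferase for Rab proteins, ran from 7.63 to 7.93 and from 7.75 to 8.55, with a difference of 0.32 (adjusted p = 0.493). Of Rabggta values, 5 of 6 in NOD.Drak2-/- were above every NOD array. The third, Pdss2, of ubiquinone side chain synthesis and named after its value was seen, differed by -0.33 (adjusted p = 0.527 in limma) at background level.

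Some of the 8 genes varied together from array to array. Over the 12 arrays, 28 pairs of genes were compared, with Benjamini-Hochberg adjustment over the 28. Hmgcs1 and Insig1 were the closest pair, with Pearson's r = 0.84 (permutation p = 0.00058, adjusted p = 0.0162) and Spearman's rho = 0.83 (permutation p = 0.00126, adjusted p = 0.0353). Without the 2 arrays farthest from the median of Hmgcs1, NOD replicate 1 and NOD.Drak2-/- replicate 2, r was 0.70 (permutation p = 0.0232). Within each genotype r was also positive, at 0.80 in NOD (exact permutation p = 0.0347) and 0.94 in NOD.Drak2-/- (exact permutation p = 0.0111). After adjustment over the 28 pairs neither passed (adjusted p = 0.144 and 0.311 by the exact permutation test). NOD replicate 2, which was not among the arrays left out, was the lowest NOD array for both genes (6.01 and 6.47). The r within NOD without that array was not computed. After each genotype's mean had been removed, r over the 12 arrays was 0.85.

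Idi1 and Fdft1 were the other pair past the adjusted threshold by Pearson's r, at 0.82 (permutation p = 0.00251, adjusted p = 0.0351), with rho = 0.66 (permutation p = 0.0236, adjusted p = 0.221). This relation rested on NOD replicates 1 and 2, without which r was 0.48 (permutation p = 0.158), and Idi1 was at background level. Idi1 and Sqle followed with r = 0.68 (permutation p = 0.0165, adjusted p = 0.154) and rho = 0.62 (permutation p = 0.0374, adjusted p = 0.26), and r without the same arrays was 0.41. Looked at after the values were seen, and so with no test, r was above 0 for all 15 pairs among Hmgcs1, Insig1, Idi1, Fdft1, Sqle and Fdps, from 0.15 to 0.84. Srebf2 had r below 0 with each of these 6, from -0.54 to -0.20. Mvd had r below 0 with 5 of the 6, from -0.59 with Fdps to 0.05 with Idi1, and 0.51 with Srebf2. None of the pairs of Mvd or Srebf2 passed after adjustment.

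**Figure D3:**
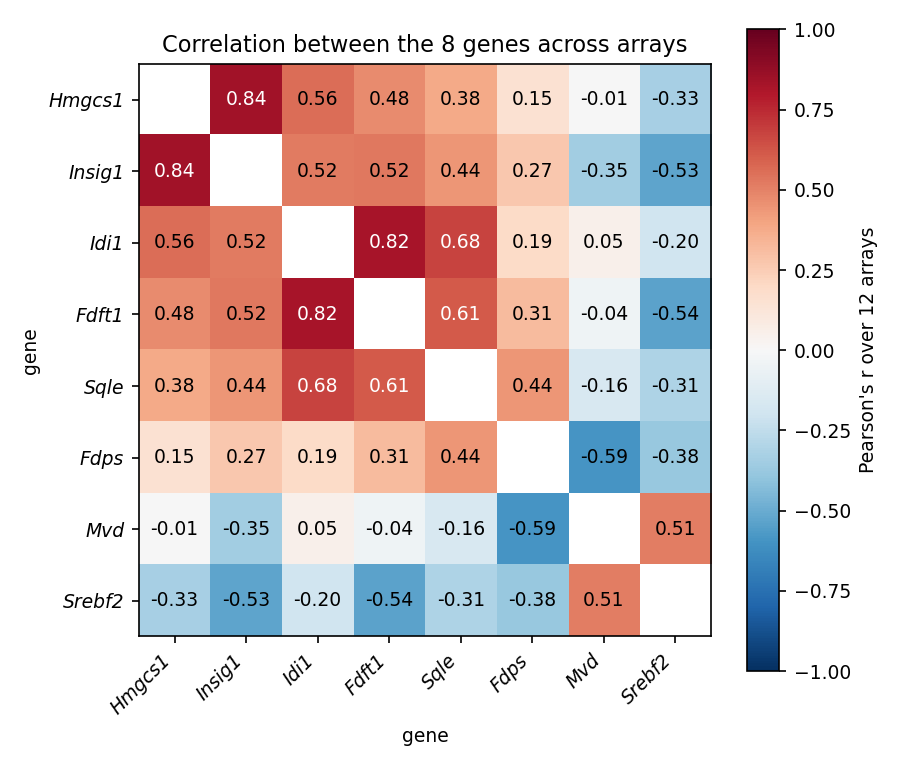
Pearson's r over the 12 arrays for each pair of the 8 genes, on a scale from blue (negative) to red (positive), with genes on both axes. Hmgcs1 with Insig1 (0.84) and Idi1 with Fdft1 (0.82) are the highest, and the Srebf2 row is negative except with Mvd (0.51).

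Within NOD, the lowest array was the same for most genes. NOD replicate 2 was the lowest NOD array for 6 of the 8 genes, Hmgcs1, Idi1, Fdps, Fdft1, Sqle and Insig1, and its mean deviation from the genotype mean over the 8 genes was -0.33. The other 11 arrays lay between -0.14 and 0.15. NOD replicate 1 was the highest NOD array for 5 genes, and NOD.Drak2-/- replicate 7 the highest of its genotype for 4. For Mvd and Srebf2, NOD replicate 2 was not low: it gave 7.04 for Mvd and 8.97 for Srebf2. In NOD.Drak2-/- the lowest array was replicate 1 for 2 genes, replicate 2 for 3 and replicate 4 for 3.

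Proliferation genes moved with some of these levels. The mean of 14 such genes, 13 of them above background, ran from 6.18 to 7.67 in NOD and from 6.25 to 7.24 in NOD.Drak2-/-, and the lowest NOD array was again replicate 2. Averaged over arrays, the list was at 7.04 in NOD and 6.83 in NOD.Drak2-/-, a difference of -0.21. The difference was below 0 for 12 of the 14 genes, beside 54.1% of all genes. In limma 0 of the 14 passed the threshold, beside 0.0205% of all genes. At an unadjusted p under 0.05 there was 1, with a negative difference, beside 5.69% of all genes in that direction. The per-array means of the list overlapped between the genotypes. Whether the list bears on the difference of Hmgcs1 was not tested beyond the covariate fit given below. Of 8 relations with this mean, adjusted over the 8, Sqle passed, with r = 0.79 (permutation p = 0.00265, adjusted p = 0.0212) and rho = 0.84 (permutation p = 0.00122, adjusted p = 0.00976). For Sqle r was 0.80 without NOD replicates 2 and 6 (permutation p = 0.00566). Within the genotypes it was 0.82 in NOD (exact permutation p = 0.0347) and 0.84 in NOD.Drak2-/- (exact permutation p = 0.0361), and neither passed after adjustment over the 8 relations (adjusted p = 0.139 and 0.272). Hmgcs1 gave r = 0.60 (permutation p = 0.0419, adjusted p = 0.112) and rho = 0.62 (permutation p = 0.0346, adjusted p = 0.0924), with r = 0.45 without those 2 arrays. Its r was 0.84 in NOD (exact permutation p = 0.0292, adjusted p = 0.139) and 0.12 in NOD.Drak2-/- (exact permutation p = 0.815). Whether these differ was not tested. NOD replicate 2 was the lowest NOD array for both the list mean (6.18) and Hmgcs1 (6.01), and r within NOD without it was not computed. With the proliferation mean as a covariate the difference of Hmgcs1 between the genotypes was -0.58 (adjusted p = 0.419 in limma). With the B cell, myeloid or heat shock and dissociation mean it was -0.68, -0.66 and -0.69, and with the mean of the background rows -0.56.

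**Figure D4:**
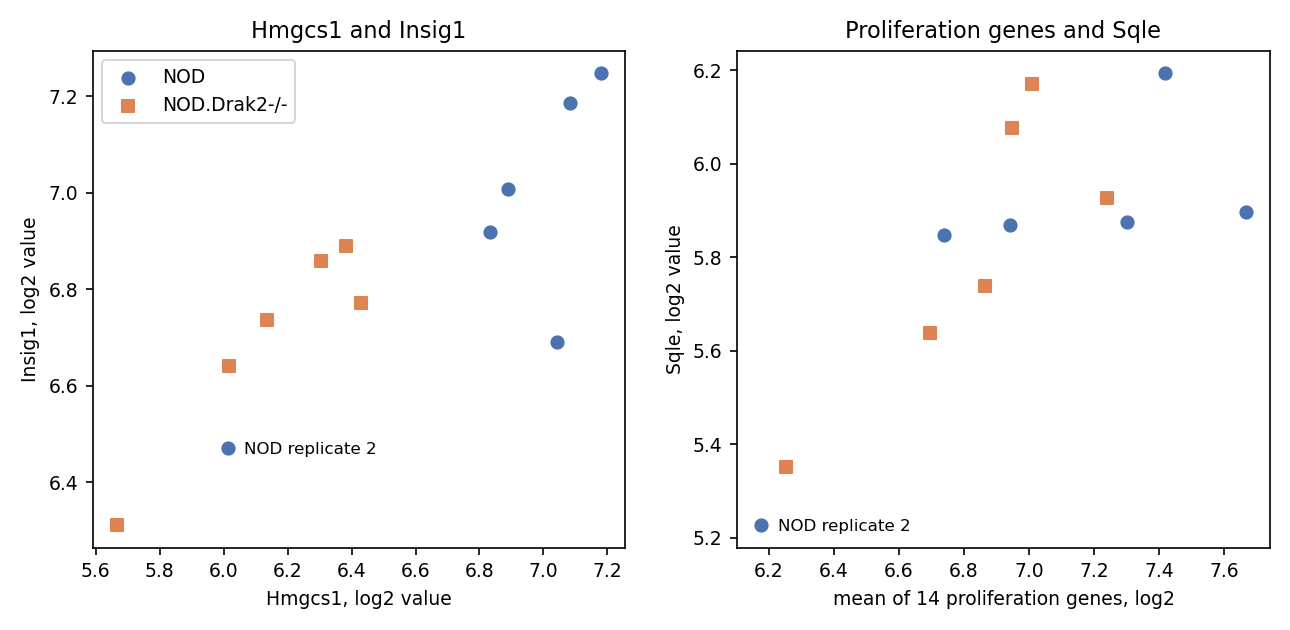
Left, log2 values of Hmgcs1 and Insig1, and right, the mean log2 value of 14 proliferation genes and the log2 value of Sqle, 1 point per array (NOD, blue circles; NOD.Drak2-/-, orange squares). NOD replicate 2 lies at the lower left among the NOD arrays in both panels, and r over the 12 arrays is 0.84 on the left and 0.79 on the right.

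Of 8042 genes above background outside the lists, those whose deviations from the genotype mean were most like the mean deviation of the 8 genes were Zfp715 (r = 0.97, rho = 0.83), Vti1b (0.94 and 0.86), Mrps21 (0.93 and 0.87), Car5b (0.92 and 0.83) and Mcm3 (0.91 and 0.84). These are the highest of many values over 12 arrays and are given with no test. The mean deviation of the 8 genes was -0.33 in NOD replicate 2 and between -0.14 and 0.15 in the other arrays. Mvd and Srebf2 had r = -0.14 and -0.31 with the mean deviation of the other genes of the 8. Zfp715 encodes a zinc finger protein, Vti1b a vesicle fusion protein, Mrps21 a mitochondrial ribosomal protein, Car5b a mitochondrial carbonic anhydrase and Mcm3 a subunit of the replicative helicase. Zfp715 was lowest at 4.29 and highest at 7.27 over the arrays, and Mcm3 ran from 8.01 to 8.98. None of them differed past the threshold between the genotypes, with adjusted p-values in limma from 0.535 to 0.961.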

How the data were processed

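Gene expression was measured on 12 arrays, 6 per genotype, from sorted regulatory T cells, each from 125 ng of RNA per the labels' protocols. The authors' deposited table holds log2 values. The submitters' processing notes name RMA and oligo, an R package; the sources used here give no version or genome build. RMA subtracts background, equalises the distributions of the arrays and combines the probes of each row into 1 value. It assumes that most genes do not shift together. Array values carry no depth, so precision depends on the number of arrays and on the spread of a gene between them.

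Rows with 1 gene symbol in the platform annotation were used, keeping the brightest row per gene (67 dropped, 19505 genes). Symbols found in the RefSeq gene table of GRCm38.p6 numbered 19505. The genotypes were compared with limma 3.58.1 in R 4.3.3 (lmFit, eBayes, no covariate), with Benjamini-Hochberg adjustment over all genes and a threshold of 0.05. Single genes were compared by exact permutation over 924 regroupings, and correlations over 12 arrays used 100000 permutations (Python 3.11.15, scipy 1.17.1). Adjusted p-values of genes are limma's. The steps were tested on simulated data. RefSeq promoters were matched by symbol and gene ID.

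The 8 genes, the lists and the tests were chosen with earlier results of these data known. Named were Stk17b, the 8 genes, the 2 smallest p-values per pathway list where none passed, the 5 genes most alike above background, defining genes and, of each other-cell, handling and proliferation list, the brightest gene, of which Dusp1 (11.86) was brightest among handling genes, Mki67 (9.30) among proliferation genes and Izumo1r (11.79) among defining genes. Some genes the rule names are not reported here. Alternatives were array scaling, row choice, a filter on dim genes, variance model, array weights, a replicate block, covariates and leaving out each array.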

Additional observations from a re-analysis of the deposited data

Results flagged for a closer look

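Among the values of the 8 genes and of 8 list means in each genotype, 32 groups of 6 arrays were looked at for an array apart from the others, where chance gives about 1 in 20, or 1.6 of 32. There were 2. Hmgcs1 in NOD replicate 2 was 6.01, while the other 5 NOD arrays ran from 6.83 to 7.18. Sqle in NOD replicate 2 was 5.23, while the other 5 ran from 5.85 to 6.19. Both values come from the same array and so are not independent.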

How the results depend on the processing

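Over 24 alternatives, 12 of them leaving out an array, 0 of the 8 genes and 0 of the 57 other pathway genes passed in limma, and Hmgcs1 kept its direction with an unadjusted p under 0.05 in all 24. Mvd, Fdps and Insig1 kept their direction too. The difference of Sqle turned to 0.064 with median centring, 0.039 with quantile normalization, 0.0094 with array weights, 0.030 with the replicate block, 0.043, 0.11 and 0.12 with the myeloid, proliferation and background row covariates, and ran from -0.12 to 0.092 over the fits without 1 array. Fdft1 turned to 0.019 with median centring and ran from -0.076 to 0.0052 without 1 array, Idi1 from -0.24 to 0.018, and Srebf2 turned to -0.020 with the background row covariate and ran from 0.094 to 0.43 without 1 array. The median over the 8 ran from -0.13 to 0.012 without 1 array, Fdps from 0.052 to 0.23, Abca1 from 0.25 to 0.57 and Nr1h3 from 0.21 to 0.42. The cause was not tested. Median centring moved the median of all genes by 0.07.

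Genes past the threshold over the whole table numbered 4, and 0 with the replicate block, 1 each with the B cell, myeloid, proliferation and background row covariates, 7 with the heat shock covariate and 1 to 2 without 1 array. Genes at an unadjusted p under 0.05 were 1840, and 729 with the filter on dim genes, which tests fewer genes. Those without 1 array were 1347 to 2538. The other pathway genes at that level were 8, and 5 with the replicate block and 6 to 11 without 1 array. Of the 8 genes there were 1 to 2 without 1 array. The median r between the 8 genes was 0.23, and -0.0053 with the filter on dim genes, which drops Idi1 and Sqle, and 0.14 to 0.29 without 1 array. The labels do not say whether same-numbered arrays were paired. Deviations of same-numbered arrays correlated at -0.29 to 0.15 over 5 shared numbers, which cannot settle it. The replicate block gave Hmgcs1 a difference of -0.70 (adjusted p = 0.629 in limma), Srebf2 0.48, Fdps 0.05 and Nr1h3 0.10. Values near background limit what can be said of Idi1 and Sqle.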
